A study of Homo sapiens with 4 samples.

Results

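The HOX genes of the 4 human clusters were examined in 786-O cells, an established human clear cell renal carcinoma line, with and without knockout of DEK, a chromatin-bound protein with histone chaperone activity. Members were all genes of the deposited table named HOXA, HOXB, HOXC or HOXD plus a paralogue number. There were 39 of them among 59409 genes, 11 in the HOXA, 10 in the HOXB, 9 in the HOXC and 9 in the HOXD cluster. Polyadenylated RNA was sequenced from 2 libraries labelled negative control with genotype WT and 2 libraries labelled DEK KO, and the data were analysed as TPM (a level per transcript length, scaled to a total of 1000000 in each library). The Cas9 cells were a clone made with a lentiviral Cas9 and a blasticidin resistance vector, and knockout clones were derived from Cas9 cells with lentiviral DEK guides and single-cell sorting. The controls' column names carry Cas9. The labels do not say which clone a knockout library came from, nor whether libraries of a group were separate cultures, so p-values measure only the spread between these libraries.

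HOX genes encode homeodomain transcription factors that give cells along the body axis their positional identity. They sit in clusters in which gene order follows paralogue number, with low numbers at the anterior and high numbers at the posterior end, and genes of the same number in different clusters are paralogues that arose by duplication. Trithorax group and MLL complexes maintain their active state, Polycomb complexes their silent state, and HOX proteins bind DNA together with TALE homeodomain partners of the PBX, MEIS and PKNOX families. In the kidney, HOX11 paralogues act in the embryonic metanephric mesenchyme, and adult renal cells keep a pattern of active HOX genes.

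The libraries held about 35800000 to 40100000 counted reads each. DEK mRNA measured 95.0 and 76.3 TPM in the controls and 31.4 and 15.7 TPM in the knockouts, a log2 change of -1.89 (SE 0.33, limma adjusted p = 0.030) with a transcript still present in both knockout libraries. Of 10 renal markers 9 were at 1 TPM or more in every library, among them the renal lineage factor PAX8 at 140 to 160 TPM, while CA9 was under 0.35 TPM throughout. Their summed level was 8186 and 8022 TPM in the controls, and 8660 and 8879 TPM in the knockouts, and PAX2, NNMT and CDH6 fell (log2 fold changes -1.08, -1.51 and -0.50). The part of these changes in the HOX values was not tested. Of 20 markers of other cell types, PMEL alone reached 1 TPM, and the summed level of the 20 was 2.62 to 2.99 TPM in the controls and 3.46 to 4.98 TPM in the knockouts. CD3E, SOX10, MYOD1, TTR, APOA1, SFTPC and CDX2 were listed at 0 in all libraries. The knockout libraries stood apart from each other by chromosome. Among tested genes outside the HOX clusters, the median log2 difference of knockout 2 minus knockout 1 ranged from -0.17 on chromosome 1 to 0.22 on chromosome 7, which carries HOXA.

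HOXA genes fell in the knockout, from HOXA2 through HOXA10 apart from the nearly silent HOXA7, and no HOXB, HOXC or HOXD gene passed the test. Of the 39 members, 30 reached 1 TPM in at least 2 libraries and were tested. In the knockout 7 of these fell and 0 rose (limma on log2(TPM + 1), Benjamini-Hochberg adjusted p under 0.05 over all 15815 tested genes). All 7 were among the 10 tested HOXA genes. Over all tested genes, 17.7% were called, 8.67% as fallen and 9.06% as risen. With libraries rescaled by the median ratio, falls over all genes numbered 955 and rises 1588, against 1371 and 1433 as deposited, and the HOX count stayed at 7 falls. At an unadjusted p under 0.05, 8 of the 30 tested HOX genes were lower and 2 higher. Of all 15815 tested genes, 3386 were lower and 2670 higher at that cut. The median log2 fold change was -1.03 for the tested HOXA genes, 0.17 for HOXB, -0.09 for HOXC and 0.04 for HOXD, against -0.06 over all tested genes. The smallest p that an exact permutation test allows for 2 libraries against 2 is 0.333, and the difference between clusters was not tested. RNA came from whole cultures, so fewer cells with HOXA expression and less HOXA RNA per cell cannot be told apart.

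**Figure D1:**
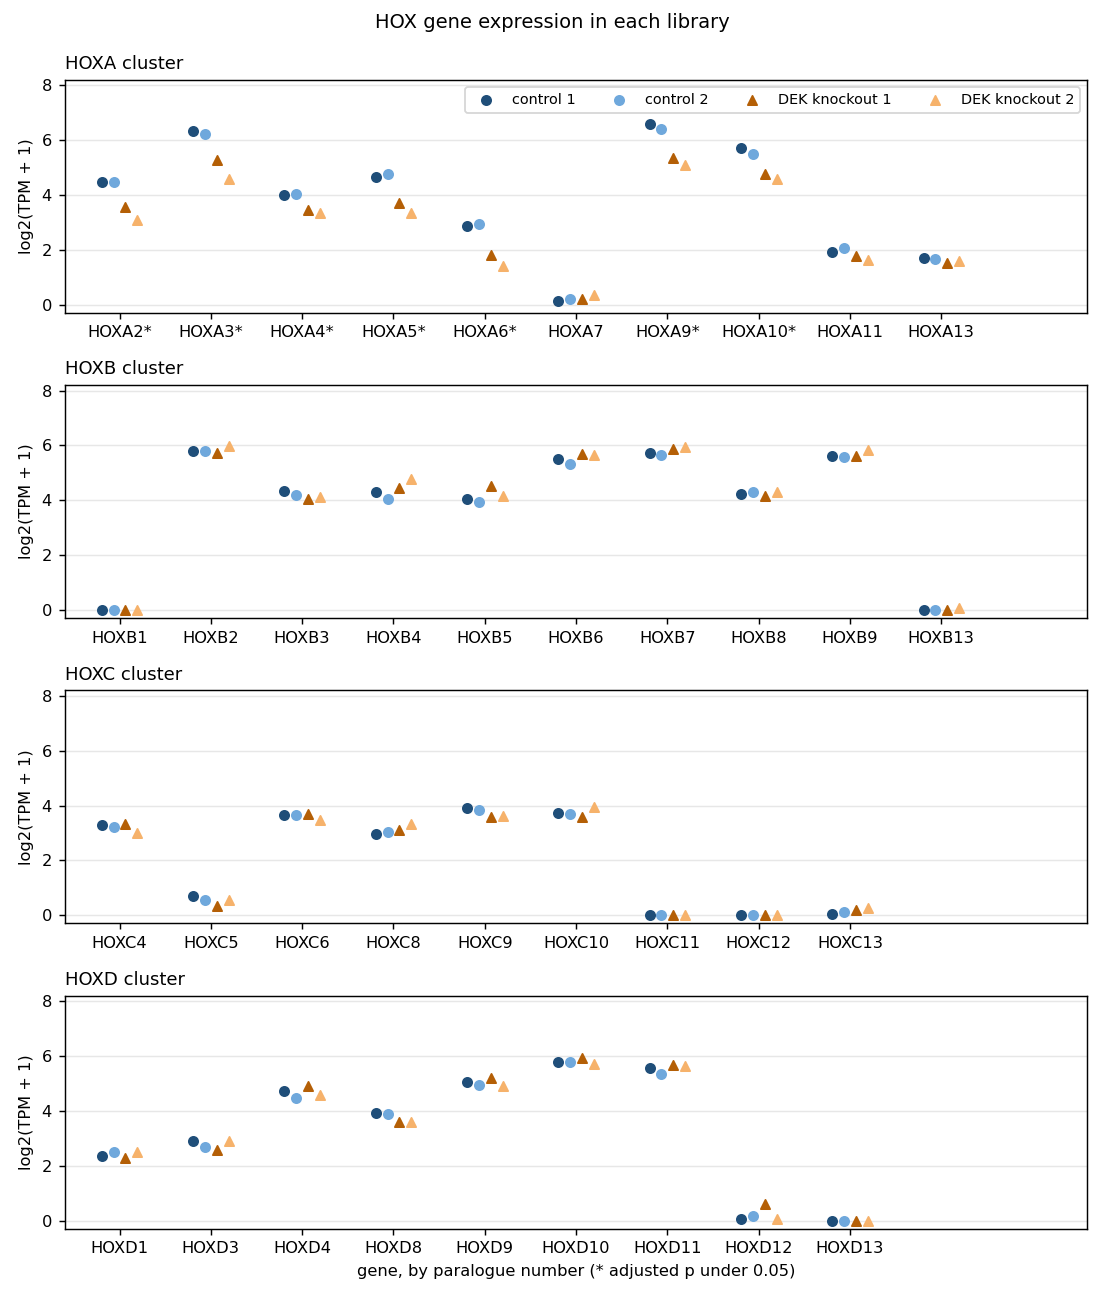
Level of the HOX genes on the log2(TPM + 1) scale (vertical axis) by paralogue number (horizontal axis), with 1 point per library (circles controls, triangles knockouts) and 1 panel per cluster. In the HOXA panel the triangles of HOXA2 to HOXA6, HOXA9 and HOXA10 lie below both circles, with knockout 2 lowest, while points of most HOXB, HOXC and HOXD genes lie close together.

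Among the anterior HOXA genes, whose paralogues pattern the hindbrain and pharyngeal arches, HOXA2 and HOXA3 fell. The cluster lies on the minus strand of chromosome 7, and positions are those of GRCh38. HOXA2, which specifies second arch identity (27100354 to 27102811), measured 21.2 and 20.9 TPM in the controls and 10.9 and 7.46 TPM in the knockouts. The means were 21.1 ± 0.216 and 9.16 ± 2.41 TPM (SD, n = 2 per group), and the log2 fold change was -1.14 (SE 0.19, adjusted p = 0.027). The knockouts were both well below the controls, knockout 2 the lower. HOXA3 (27106184 to 27152581), which is required for thymus and parathyroid development, measured 79.4 and 73.4 TPM in the controls and 37.4 and 23.2 TPM in the knockouts. It had the most negative log2 fold change of the family, -1.34 (SE 0.23, adjusted p = 0.029), and the level fell 2.52-fold from 76.4 ± 4.21 to 30.3 ± 10.1 TPM (SD, n = 2). Its annotated span runs across HOXA4, HOXA5 and HOXA6.

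The central HOXA genes fell too, apart from the nearly silent HOXA7. HOXA4 (27128507 to 27130799) measured 15.2 and 15.3 TPM in the controls and 9.79 and 9.11 TPM in the knockouts. Its fall, 1.61-fold, was the smallest of the 7 (log2 fold change -0.64, SE 0.11, adjusted p = 0.029), and with the chromosome 7 median removed from each library it was -0.57 (adjusted p = 0.058). HOXA5 (27141052 to 27143668), a regulator of lung and axial development, measured 24.0 and 26.2 TPM in the controls and 12.1 and 9.19 TPM in the knockouts. The groups did not overlap, and the log2 fold change was -1.17 (SE 0.16, adjusted p = 0.020). HOXA6 (27145396 to 27150603) measured 6.30 and 6.75 TPM in the controls and 2.51 and 1.65 TPM in the knockouts. The fall of 3.14-fold was the largest of the 7 as a ratio of mean TPM (log2 fold change -1.30, SE 0.20, adjusted p = 0.024), and it rested on 63 and 70 counted reads in the controls against 23 and 17 reads in the knockouts. HOXA7, the next gene, measured 0.0981 and 0.142 TPM in the controls and 0.160 and 0.286 TPM in the knockouts, from 2, 3, 3 and 6 reads, and was not tested. It was thus at the edge of detection in cells in which the genes on either side of it were expressed.

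At the posterior side HOXA9 and HOXA10 fell, and HOXA11 and HOXA13 did not pass. HOXA9 (27162435 to 27175180), a regulator of blood stem cells and a leukaemia oncogene, had the highest control level of all HOX genes, 94.4 and 83.7 TPM, and was at 39.9 and 33.3 TPM in the knockouts. It fell from 89.1 ± 7.54 to 36.6 ± 4.67 TPM (SD, n = 2), with a log2 change of -1.26 (SE 0.12) and the smallest adjusted p of the family, 0.014. HOXA10 (27170591 to 27180261), which acts in the reproductive tract, measured 50.7 and 43.7 TPM in the controls and 26.3 and 22.8 TPM in the knockouts. Its groups were well apart, and the log2 fold change was -0.92 (SE 0.12, adjusted p = 0.020). HOXA11 (27181510 to 27185223), one of the HOX11 genes of kidney development, measured 2.74 and 3.18 TPM in the controls and 2.38 and 2.09 TPM in the knockouts, a log2 change of -0.29 (SE 0.17, adjusted p = 0.28). HOXA13 (27193503 to 27200106), a gene of distal limb and genitourinary development, measured 2.21 and 2.15 TPM in the controls and 1.83 and 1.99 TPM in the knockouts, a log2 change of -0.13 (SE 0.17, adjusted p = 0.62). Both were low genes, with 58 to 113 reads per library, and on the log2(TPM + 1) scale changes of low genes are understated.

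All 10 tested HOXA genes had both knockouts below both controls, which 39.0% of all tested genes also had. Knockout 1 held 38.4% to 64.2% of the control mean in the 7 genes that fell and knockout 2 held 25.3% to 59.7%. In each of the 7, knockout 2 was lower than knockout 1, by a median of 0.37 on the log2 scale (value -0.37), while the median tested gene of chromosome 7 was higher in knockout 2 by 0.22. The median log2 fold change of chromosome 7 outside HOX was -0.08. With knockout 1 or knockout 2 left out, all 7 passed, in fits where the lone knockout is assumed to vary like the 2 controls and where 5510 of 15147 and 3092 of 15136 genes passed. With control 1 or control 2 left out, the spread came from the 2 knockouts, and none of the 7 passed. Their log2 fold changes there were -1.40 to -0.63. In those fits 47 and 51 of all tested genes passed. None of the 7 passed with no filter on low values either (adjusted p 0.060 to 0.092), a fit of 31270 genes in which 26 passed.

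**Figure D2:**
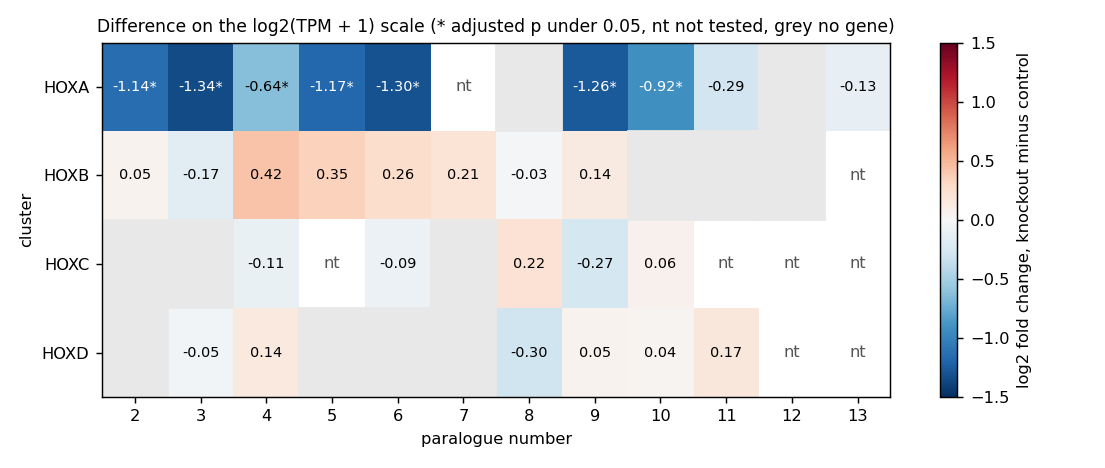
Log2 fold change of the tested HOX genes of paralogue groups 2 to 13, knockout minus control, on the log2(TPM + 1) scale (colour and number), by cluster (rows) and paralogue number (columns); asterisks mark an adjusted p under 0.05. The 7 asterisks stand in the HOXA row, between -1.34 and -0.64, and the tested HOXB, HOXC and HOXD genes lie between -0.30 and 0.42.

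Promoter sequence is shown for members that moved together. RefSeq start windows (GRCh38.p14) were at hand for 20 of the 39 members, with the 250 bases before the start used here. HOXA6, HOXA9 and HOXA10 are shown as genes that fell with a window that overlaps no annotated exon. HOXA3 fell too and has 2 such windows, chr7:27118358-27118607 and chr7:27119596-27119845, which hold none of the motifs searched and are not printed. HOXA13, whose window holds 15 exon bases of its own, is shown as a HOXA gene that did not pass. Capitals mark matches on either strand to the CCAAT box, the TATA box spelled TATAAA, the SP1 box spelled GGGCGG, the homeodomain palindrome TAATTA and the PBX-HOX composite site TGATTNAT, and matches that overlap or adjoin run together.
HOXA6, minus strand, chr7:27147775-27148024: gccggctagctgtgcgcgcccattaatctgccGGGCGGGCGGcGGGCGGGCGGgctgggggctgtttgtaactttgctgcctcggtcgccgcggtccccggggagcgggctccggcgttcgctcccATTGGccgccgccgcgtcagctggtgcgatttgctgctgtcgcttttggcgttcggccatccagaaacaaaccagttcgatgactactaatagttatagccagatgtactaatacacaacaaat
HOXA9, minus strand, chr7:27165538-27165787: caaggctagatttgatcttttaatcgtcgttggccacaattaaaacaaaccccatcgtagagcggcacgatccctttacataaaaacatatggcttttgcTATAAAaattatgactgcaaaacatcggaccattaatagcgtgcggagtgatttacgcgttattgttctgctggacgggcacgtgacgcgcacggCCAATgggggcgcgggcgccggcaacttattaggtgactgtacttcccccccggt
HOXA10, minus strand, chr7:27174321-27174570: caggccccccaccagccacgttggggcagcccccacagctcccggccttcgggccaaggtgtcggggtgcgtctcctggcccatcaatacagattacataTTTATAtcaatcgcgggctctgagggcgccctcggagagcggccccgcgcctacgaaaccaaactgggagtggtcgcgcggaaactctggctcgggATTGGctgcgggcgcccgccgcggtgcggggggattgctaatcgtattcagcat
HOXA13, minus strand, chr7:27200092-27200341: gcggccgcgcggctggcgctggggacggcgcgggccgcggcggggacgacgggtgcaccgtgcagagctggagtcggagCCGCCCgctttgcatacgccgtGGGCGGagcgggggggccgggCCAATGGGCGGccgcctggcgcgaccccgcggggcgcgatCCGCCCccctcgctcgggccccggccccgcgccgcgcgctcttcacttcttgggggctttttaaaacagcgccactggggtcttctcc

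The 4 windows each held 1 CCAAT box. CCAAT was in 17 of 26 distinct HOX windows, and in 32.02% of 34788 distinct windows of the same length over all genes. TATAAA was in the printed windows of HOXA9 and HOXA10, in 5 of the 26 HOX windows and in 10.8% of all windows. HOXA6 and HOXA13 each held 4 matches to GGGCGG, found in 13 of 26 HOX windows and 42.6% of all. The palindrome and the composite site were each in 2 of the 26 HOX windows, against 4.37% and 2.48% of all, and in none of the 4 printed. The share of G and C was 62.0% for HOXA6, 48.8% for HOXA9, 65.2% for HOXA10 and 78.0% for HOXA13, with a median of 58.0% over all windows, and the numbers of CG dinucleotides were 27, 20, 24 and 40, with a median of 11. The window of HOXA13, whose level did not pass the test, was the richest of the 4 in CG. Among windows without exon bases, no motif was common to the genes that fell, since the 2 such HOXA3 windows held no CCAAT. Windows that overlap exons did hold CCAAT for HOXA2, for HOXA4 and for HOXA3 at chr7:27152584-27152833. HOXA5 had no window.

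Some other transcripts of the HOXA cluster, but not all, were lower along with the HOXA genes next to them. The fixed list of noncoding and EVX genes of the 4 clusters had 23 members, of which 11 were tested. Of these, 3 fell and 0 rose, against 8.67% and 9.06% of all tested genes. The median log2 fold change of the 11 was -0.01, and the 3 were all in HOXA. HOXA-AS2, an antisense RNA beside HOXA3, measured 14.1 and 14.1 TPM in the controls and 7.93 and 5.40 TPM in the knockouts (log2 fold change -1.0, SE 0.19, adjusted p = 0.035). HOXA10-AS measured 34.5 and 36.4 TPM in the controls and 19.0 and 17.2 TPM in the knockouts (log2 fold change -0.93, SE 0.10, adjusted p = 0.015). HOTAIRM1, at the anterior end of the cluster, measured 30.9 and 32.8 TPM in the controls and 23.5 and 24.5 TPM in the knockouts (log2 fold change -0.39, SE 0.09, adjusted p = 0.047). In all 3 both knockouts lay below both controls, which 39.0% of all tested genes also had. HOXA11-AS measured 2.96 and 3.22 TPM in the controls and 3.14 and 2.998 TPM in the knockouts, and HOXA-AS3 was at 1.10 to 1.62 TPM, and neither passed. Strand use in counting is not given in the sources used here, so reads of sense and antisense partners cannot be told apart. By annotation, HOXA10-AS shares 422 exon bases with HOXA9 and 608 with HOXA10, and HOXA-AS2 shares 374 with HOXA3 and 254 with HOXA4. HOXA-AS3 shares 505 bases with HOXA6, 39.3% of the exon bases of that gene and the largest such share with an antisense RNA among the 7 that fell, and 288 with HOXA3.

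The miR-196 genes lie in 3 of the clusters, and their products are known to target HOX mRNAs. They were chosen after values were seen, because MIR196B lies within an exon of HOXA9. The mature 5p sequences (RefSeq, GRCh38.p14) share a seed, bases 2 to 8, in capitals, and differ at 1 base, A12C from miR-196a to miR-196b, counted from the 5′ end.
miR-196b-5p, from MIR196B in HOXA: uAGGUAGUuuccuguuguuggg
miR-196a-5p, from MIR196A1 in HOXB and MIR196A2 in HOXC: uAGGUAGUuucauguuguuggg
MIR196B measured 24.7 and 30.6 TPM in the controls and 7.70 and 5.71 TPM in the knockouts, from 21, 27, 6 and 5 reads (log2 fold change -1.90, SE 0.18, limma adjusted p = 0.014). By GENCODE, all 84 of its annotated bases lie in an exon of HOXA9 on the same strand, so these reads could belong to either gene. The annotation behind the deposited values is not given in the sources used here. The mature miRNA is not what these libraries of polyadenylated RNA measured. MIR196A1 measured 55.1 and 59.9 TPM in the controls and 50.8 and 20.6 TPM in the knockouts and did not pass (adjusted p = 0.22), with only knockout 2 far below. MIR196A2 was listed at 0 in 3 libraries.

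Genes beside the cluster fell as well. Within 1000000 bases on either side of HOXA, 11 other genes were tested, of which 6 fell and 1 rose, with a median log2 fold change of -0.63. Over all tested genes, 8.67% fell and 9.06% rose. CBX3, which encodes a heterochromatin protein, measured 224 and 200 TPM in the controls and 119 and 98.7 TPM in the knockouts, and HIBADH, an enzyme of valine breakdown on the HOXA13 side, was at 89.7 and 86.8 TPM against 56.4 and 56.8 TPM. SKAP2, the nearest tested gene on the anterior side, measured 88.5 and 88.8 TPM in the controls and 73.6 and 56.3 TPM in the knockouts and did not pass (adjusted p = 0.084). The flanks of the other clusters gave 3 rises and 1 fall of 41 tested genes for HOXB, 6 and 5 of 41 for HOXC and 1 and 1 of 11 for HOXD. Their medians were 0.13, 0.03 and 0.07. The part of this wider region in the HOXA values was not tested, and DNA copy number was not analysed here.

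**Figure D3:**
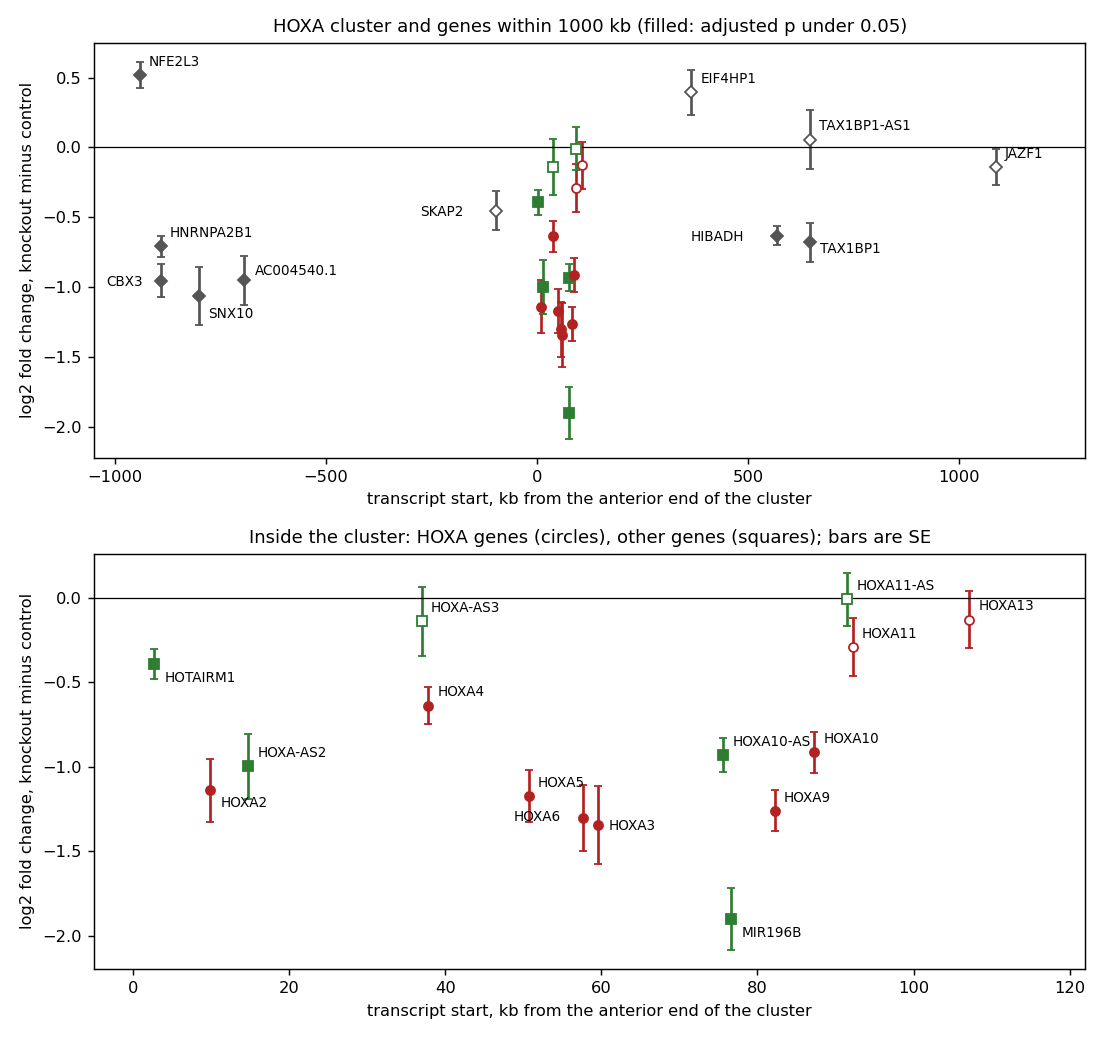
Log2 fold change, knockout minus control, on the log2(TPM + 1) scale (vertical axis, bars are SE) against the transcript start in kb from the anterior end of the cluster (horizontal axis), for tested genes within 1000000 bases of HOXA (top) and inside the cluster (bottom); filled symbols have an adjusted p under 0.05. The tested genes from HOXA2 to HOXA10 lie between -1.34 and -0.64, HOXA11 and HOXA13 lie between -0.29 and -0.13, and 6 of the 11 flanking genes are filled below 0.

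The HOXB genes summed to 269 and 256 TPM in the controls, the second of the 4 clusters, and none of the 8 tested passed. HOXB2 measured 54.9 and 54.3 TPM in the controls and 51.6 and 62.1 TPM in the knockouts, so that its groups overlapped. HOXB4, a gene of blood stem cell expansion, measured 18.9 and 15.7 TPM in the controls and 20.6 and 26.7 TPM in the knockouts, with the largest positive log2 fold change of the family, 0.42 (SE 0.17, adjusted p = 0.14). HOXB5 measured 15.3 and 14.3 TPM in the controls and 21.9 and 16.7 TPM in the knockouts (0.35, SE 0.16, adjusted p = 0.17). HOXB4 was high mainly in knockout 2 and HOXB5 mainly in knockout 1. HOXB6 measured 44.0 and 39.4 TPM in the controls and 50.9 and 49.5 TPM in the knockouts (0.26, SE 0.09, adjusted p = 0.10). HOXB7 measured 51.3 and 49.4 TPM in the controls and 56.7 and 60.1 TPM in the knockouts (0.21, SE 0.08, adjusted p = 0.12). HOXB6 and HOXB7 had an unadjusted p under 0.05. In 5 of the 8 both knockouts lay above both controls, which 29.2% of all tested genes showed. HOXB3 measured 19.0 and 17.3 TPM in the controls and 15.7 and 16.4 TPM in the knockouts, HOXB8 measured 17.9 and 18.5 TPM against 16.8 and 18.9 TPM, and HOXB9 measured 47.6 and 46.9 TPM against 48.4 and 55.9 TPM. Which library was left out decided whether a HOXB gene passed. Without knockout 1, HOXB4 (0.60, adjusted p = 0.030), HOXB7 (0.25, adjusted p = 0.046) and HOXB9 (0.24, adjusted p = 0.049) passed, and without knockout 2, HOXB5 did (0.54, adjusted p = 0.034). In these fits with 1 knockout library, 2375 of 15147 and 1394 of 15136 genes rose over the whole table. The antisense RNAs HOXB-AS1 and HOXB-AS3 were higher in both knockouts. HOXB-AS1 measured 7.54 and 7.81 TPM in the controls and 11.0 and 14.9 TPM in the knockouts, and HOXB-AS3 measured 2.71 and 2.34 TPM against 3.82 and 5.22 TPM. Neither passed (adjusted p = 0.058 and 0.085).

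The HOXC genes were the weakest of the 4 clusters in summed level, and none of the 5 tested passed. HOXC10 measured 12.4 and 11.8 TPM in the controls and 11.0 and 14.5 TPM in the knockouts, and HOXC6 measured 11.7 and 11.7 TPM against 11.9 and 10.1 TPM, so the groups of both overlapped. HOXC9 measured 14.02 and 13.3 TPM in the controls and 11.1 and 11.3 TPM in the knockouts, with groups apart and a log2 change of -0.27 (SE 0.11, adjusted p = 0.14). HOXC8 measured 6.79 and 7.14 TPM in the controls and 7.54 and 9.05 TPM in the knockouts (0.22, SE 0.14, adjusted p = 0.32), and HOXC4 measured 8.90 and 8.42 TPM against 8.96 and 7.02 TPM. HOXC4 and HOXC6 share 484 exon bases on the same strand, so part of their reads could belong to either.

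The HOXD genes, which act in limb and posterior axis patterning, were led by their posterior members, and none of the 7 tested passed. HOXD10 measured 53.7 and 54.5 TPM in the controls and 59.5 and 51.7 TPM in the knockouts, a log2 change of 0.04 (SE 0.10, adjusted p = 0.81). HOXD11, one of the HOX11 genes, measured 46.7 and 40.1 TPM in the controls and 49.6 and 48.3 TPM in the knockouts (0.17, SE 0.10, adjusted p = 0.27). HOXD8 had the most negative value outside HOXA, from 14.1 and 13.7 TPM to 11.1 and 11.0 TPM, with nearly equal libraries within each group (-0.30, SE 0.10, adjusted p = 0.11, unadjusted p = 0.036). HOXD9 was at 28.7 to 36.1 TPM and HOXD4 at 21.2 to 29.03 TPM over the 4 libraries, each with knockout 1 highest. HOXD3 was at 4.93 to 6.54 TPM and HOXD1 at 3.83 to 4.65 TPM, with overlapping groups. HOXD10 and HOXD11 share 452 exon bases on the same strand. With the gene AC009336.2, also on the same strand, HOXD4 shares 1178 bases (80.5% of its exon bases) and HOXD3 2206 (62.2%).

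Because only HOXA genes passed, the mix of paralogues was compared. Summed over all 39 genes, HOX expression was 811 and 763 TPM in the controls and 680 and 652 TPM in the knockouts. HOXA made up 37.6% and 37.3% of it in the controls against 22.3% and 18.3% in the knockouts, and HOXB 33.2% and 33.5% against 41.6% and 47.0%. The HOXB sum itself was 269 and 256 TPM in the controls against 282 and 306 TPM in the knockouts, 112% of the control mean, while the HOXA sum was 305 and 285 TPM against 152 and 119 TPM, 45.9% of the control mean. In controls HOXA was the strongest cluster and in knockouts HOXB was. HOXC summed to 50.9 to 54.5 TPM and HOXD to 170 to 195 TPM over all libraries. The group 9 paralogues, the highest in the controls, summed to 188 and 174 TPM there and 136 and 129 TPM in the knockouts. HOXA9 supplied 50.1% and 48.1% of that sum in the controls against 29.5% and 25.8% in the knockouts. Group 3 went from 105 and 96.1 TPM to 58.0 and 46.1 TPM, the lowest remainder of any group with a control sum of at least 1 TPM, 51.8% of the control mean. HOXA3 was 75.7% and 76.4% of group 3 in the controls against 64.5% and 50.3% in the knockouts. In group 4 and group 6, where HOXA supplied less of the sum, the knockout mean was 104% and 106% of the control mean. Group 11, the kidney paralogues, measured 49.5 and 43.3 TPM in the controls and 51.9 and 50.4 TPM in the knockouts, nearly all of it HOXD11.

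**Figure D4:**
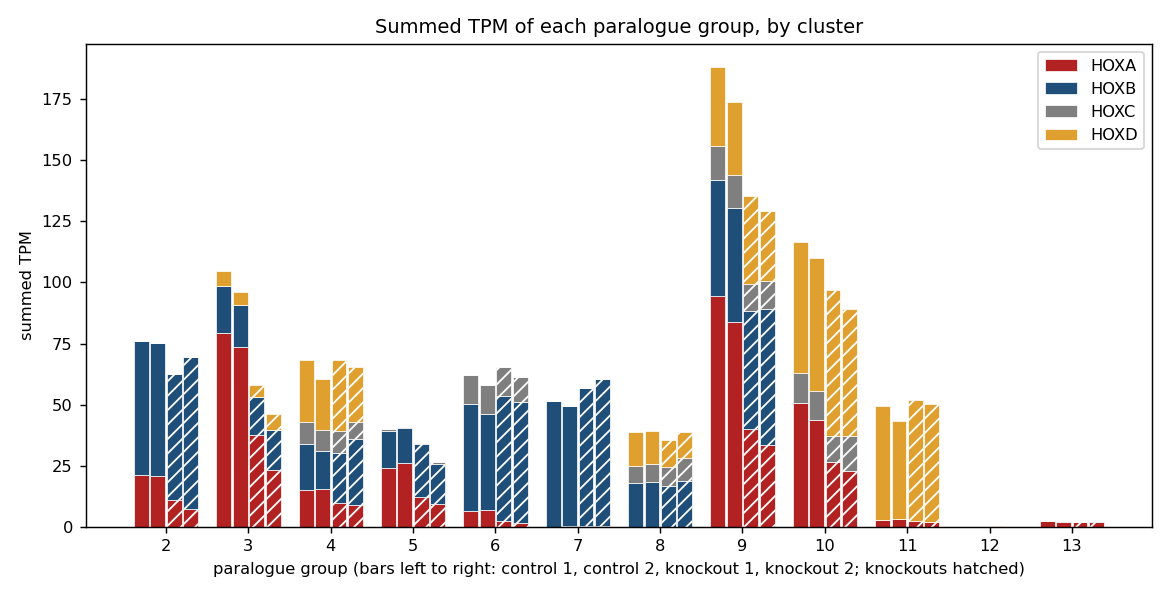
Summed TPM (vertical axis) of HOX paralogue groups 2 to 13 (horizontal axis) in the 4 libraries, with colours for the clusters and hatching for the knockouts. The red HOXA part shrinks in groups 2 to 6, 9 and 10, and the sums of groups 3 and 9 drop from 105 to 46.1 TPM and from 188 to 129 TPM between their highest and lowest library.

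The other 9 members were not tested. HOXB1, HOXC11, HOXC12 and HOXD13 were listed at 0 in all 4 libraries, which allows up to 0.0857 to 0.144 TPM taking 3 reads in a library as the limit. HOXB13 was at 0.0632 TPM in knockout 2 and listed at 0 elsewhere. HOXC5 had 5, 4, 2 and 4 reads, or a multiple of these, in control 1, control 2, knockout 1 and knockout 2. The smallest numbers imply a length of 805.5 bases for HOXC5, which is not whole. HOXC13 had 1, 2, 3 and 5 reads. HOXD12 had 1, 3, 12 and 1, so that knockout 1 alone stood out, at 0.502 TPM. These numbers imply a length of 2577 bases for HOXD12, against 1346 exon bases in GENCODE, so they are uncertain. The silent members were mostly at the posterior end of HOXC and HOXD and at both ends of HOXB, while HOXA7 and HOXC5 were low between expressed neighbours.

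Among the DNA-binding partners of HOX proteins, no tested gene passed the threshold. Of 9 TALE genes 7 were tested, and 0 rose and 0 fell (limma, with 1 at an unadjusted p under 0.05). Over all tested genes 17.7% were called. With so few genes, 0 calls does not set the partners apart from that share. PBX3 was the highest, at 50.1 and 48.4 TPM in the controls and 44.4 and 42.0 TPM in the knockouts (log2 fold change -0.19, adjusted p = 0.16). PBX2 was at 37.3 to 40.6 TPM, PBX4 at 5.84 to 7.497 TPM and MEIS2 at 4.91 to 5.44 TPM over all libraries. PKNOX1 measured 14.4 and 14.1 TPM in the controls and 11.6 and 11.7 TPM in the knockouts (-0.27, adjusted p = 0.13), and MEIS1 was at 0.641 to 1.20 TPM. MEIS3 measured 0.0662 and 0.128 TPM in the controls and 1.16 and 2.77 TPM in the knockouts, with a log2 change of 1.38 just short of the threshold (SE 0.33, adjusted p = 0.051). PKNOX2 was listed at 0 in every library.

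Among the regulators of HOX transcription, most members did not pass, and the counts are to be read against the 9.06% of all tested genes that rose and the 8.67% that fell. Of 13 trithorax and MLL complex genes 1 fell and 0 rose, with a median log2 fold change of -0.15. The member that fell was RBBP5, a core subunit shared by the MLL complexes, from 27.8 and 26.4 TPM to 18.03 and 16.6 TPM (-0.62, SE 0.10, adjusted p = 0.026). KMT2A, which encodes MLL1, measured 20.5 and 21.4 TPM in the controls and 19.2 and 17.3 TPM in the knockouts and did not pass. Of 24 Polycomb genes 3 rose, a share near that of all tested genes, and 0 fell, and their median log2 fold change was -0.16. PHC2, a PRC1 subunit, rose from 69.9 and 67.7 TPM to 127 and 155 TPM (1.02, SE 0.11, adjusted p = 0.016), JARID2, a PRC2 cofactor, from 12.7 and 12.5 TPM to 18.9 and 25.9 TPM (0.77, adjusted p = 0.045), and CBX6, a chromodomain subunit, from 45.6 and 43.7 TPM to 58.6 and 63.9 TPM (0.45, adjusted p = 0.034). EZH2, the PRC2 methyltransferase, measured 71.2 and 76.0 TPM in the controls and 52.9 and 61.5 TPM in the knockouts and did not pass (-0.36, adjusted p = 0.071). The most negative value of the 24 was that of BMI1, which did not pass either (-1.36, adjusted p = 0.057). At an unadjusted limma p under 0.05, 6 of the 24 were higher and 6 lower, against 2670 and 3386 of all 15815 tested genes. Retinoic acid induces HOX genes in the embryo through its nuclear receptors. Of 12 retinoid and CDX genes 6 were tested, and RARG, a retinoic acid receptor, rose from 16.9 and 15.7 TPM to 21.7 and 24.3 TPM (0.47, SE 0.11, adjusted p = 0.050, unrounded below the threshold), with 0 falling.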

How the data were processed

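The authors deposited 1 table of TPM for 59409 gene symbols in 4 libraries. Per the submitters' processing notes, the build was hg38 and the tools included STAR 2.7.8a, featureCounts 2.0.1, cutadapt 1.18 and DESeq2 1.36.0, with no step stated. Which annotation, gene lengths and strand setting were used is not given in the sources used here. The members and lists were chosen with earlier results of these data known.

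The 15815 genes that reached 1 TPM in 2 or more libraries were fitted as log2(TPM + 1) with limma 3.58.1 in R 4.3.3, with 1 term for the group and a variance prior that follows expression. P-values were adjusted with Benjamini-Hochberg at 0.05. The procedure was also run on simulated data in which both groups had the same spread. That run therefore does not measure the error rate on these libraries. Folds are ratios of mean TPM. Named were members of the family, list genes that passed and all tested TALE genes. Others were chosen after their values were seen (MIR196B, MIR196A1, MIR196A2, KMT2A, EZH2, BMI1, HOXA-AS3, HOXA11-AS, HOXB-AS1, HOXB-AS3 and flanking genes). Some genes are not reported here.

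Reads were estimated from the steps of the TPM values. The worth of a read came from genes matched to GENCODE release 29 (54286 symbols by name, 2205 by current symbol), and a member's reads are the smallest whole numbers, within 0.005, that keep its ratios between libraries. They were found for 34 members, and the true reads could be a multiple of them. Of values under 200 reads, 54.0% to 55.9% came out whole to within 0.02 read, so depths and reads are approximate. Positions are those of GENCODE. HOXA9, HOXA10 and others overlap further genes, so their values are uncertain to that extent. Alternatives covered the pseudocount, filter, scaling, chromosome and GC centring, variance prior, replicate block and each library left out. The limits given for HOXB1, HOXC11, HOXC12 and HOXD13 use GENCODE exon lengths and cover counting error only. Among the untested members with estimated reads, implied lengths were 0.446 to 1.91 of the GENCODE exon length. SE and SD measure the spread between libraries.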

Additional observations from a re-analysis of the deposited data

How the results depend on the processing

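The 7 HOXA falls all passed with pseudocounts of 0.1 and 0.5 TPM, a filter at 5 TPM, median ratio scaling, quantile normalization, GC centring and the replicate block. Each value was below 0 in all 98 alternative fits of the 7 genes. With the chromosome median removed HOXA4 did not pass, and HOXA2 and HOXA3 passed narrowly (limma adjusted p = 0.0493 and 0.0496). With a constant variance prior HOXA3 did not pass (adjusted p = 0.055), and HOXA2 passed narrowly (adjusted p = 0.0488). With no filter on low values 0 HOX and 0 HOXA genes passed in limma, with adjusted p of 0.060 to 0.092 for the 7. Among all 31270 genes 26 passed. At an unadjusted p under 0.05 there were 11 HOX and 7 HOXA genes, against 7168 among all 31270. The cause was not tested. Leaving out 1 library gave 0 to 10 HOX, 0 to 7 HOXA and 0 to 3 HOXB genes, and 47 to 5510 among all genes; 0 HOX genes passed without either control (7 at an unadjusted p under 0.05 each). Over all genes 1437 passed with a constant variance prior. DEK did not pass without the filter (-1.89, adjusted p = 0.096) or with the constant prior (-1.89, adjusted p = 0.056), and ranged from -2.37 to -1.41 with a library left out, without passing when control 1 (adjusted p = 0.14) or control 2 (adjusted p = 0.10) was left out. Among members that passed in neither fit the sign changed in 22 of 315 comparisons. Whether the labels' shared replicate numbers mark pairs cannot be decided here. Deviations within a group mirror each other, so they give only 1 correlation, 0.099 across genes for same-numbered libraries. The replicate block gave the same 7 HOX calls, and 2971 among all genes against 2804 without it. Falls of genes with few reads, such as HOXA7, could not be detected at this depth.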

Other observations

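Outside the HOX clusters, 85 genes of other homeobox families were listed after the HOX values had been seen, and 34 were tested. HLX, a homeobox gene of gut and liver mesenchyme, fell from 12.6 and 13.3 TPM in the controls to 6.60 and 5.62 TPM in the knockouts (log2 fold change -0.98, SE 0.13, limma adjusted p = 0.020). It lies on chromosome 1, whose median log2 fold change outside HOX was -0.17. The other 33 did not pass, 0 rose, and the median of the 34 was -0.02. Over all tested genes, 8.67% fell and 9.06% rose. MSX1 measured 14.7 and 16.1 TPM in the controls and 21.1 and 28.7 TPM in the knockouts (0.64, adjusted p = 0.062). PAX2, a paired-box factor of the developing kidney and a fixed renal marker, fell from 24.8 and 22.1 TPM to 12.4 and 8.94 TPM (-1.08, SE 0.18, adjusted p = 0.027), with knockout 2 the lower. PAX8 measured 153 and 142 TPM in the controls and 140 and 160 TPM in the knockouts.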
